A study of Homo sapiens with 6 samples.

Results

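The genes described here are 10 members of the integrated stress response, chosen by their gene identifiers and not by how they behaved: ATF4, DDIT3, TRIB3, ASNS, CHAC1, PSAT1, PHGDH, SESN2, MTHFD2 and DDIT4. All 10 were found among the 26445 probe sets of the deposited table. They were measured in SW480, a human colorectal cancer cell line, in total RNA hybridized to Affymetrix human exon arrays. All 6 arrays come from Clone 13, a single clone that expresses the tetracycline repressor and carries a KIAA1199 construct without a tag, which doxycycline switches on. The uninduced samples (n = 3) were compared with 3 samples exposed to doxycycline for 48 h, at a labelled dose of 50 ng/ml, in 3 independent experiments. No doxycycline-treated cells without the construct were analysed here, so an effect of the drug and an effect of KIAA1199 cannot be told apart. The paper cites earlier work that found doses in its range without effect on microarray transcript levels, which was not tested here.

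In the integrated stress response, kinases that sense endoplasmic reticulum stress, lack of amino acids, lack of heme or viral RNA phosphorylate the translation initiation factor eIF2. General protein synthesis then slows, while the mRNA of the transcription factor ATF4 is translated more. ATF4 acts with C/EBP family partners at composite promoter elements and switches on genes for amino acid synthesis and transport, for redox balance and for the control of growth and cell death. Because much of this control of ATF4 lies in translation, its own mRNA level is an incomplete readout of the pathway, and the mRNA levels of its targets are commonly read beside it.

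The promoters of the members were searched on both strands for the core of this composite element, TGATGNAA, and its reverse complement TTNCATCA. In windows from 250 bases before to 50 bases after each transcription start in RefSeq (GRCh38.p14), ASNS and CHAC1 were the 2 of 10 members with a match. Several members have more than 1 listed start, and 2 of their 15 windows held a match, where 3.62% of all 35116 windows of this length hold one. The matches are shown here because both genes are widely used as readouts of ATF4. The ASNS stretch lies at chr7:97872429-97872516 on the minus strand and that of CHAC1 at chr15:40953222-40953309 on the plus strand, and capitals mark the match.
ASNS: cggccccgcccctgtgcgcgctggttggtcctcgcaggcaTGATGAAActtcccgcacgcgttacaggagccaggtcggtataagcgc
CHAC1: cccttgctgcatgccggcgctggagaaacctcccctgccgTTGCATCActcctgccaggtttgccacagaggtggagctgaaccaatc
The first capital lies 68 bases before the listed start whose window held the match for ASNS, and 209 bases before that start for CHAC1. A match is a description of the letters and says nothing of binding in these cells. The cAMP response element TGACGTCA, which reads the same on both strands, was found in 0 of the 15 windows of the members and in 1.85% of all windows.

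None of the 10 members passed the selection that the study used, which asks for an unadjusted p below 0.025 and a 1.2-fold change or more, when tested by limma with the experiment as a block (0 of 10). Of all probe sets, 5.83% passed it. At an unadjusted p under 0.05 the count was 1 of 10, DDIT4, against 12.3% of all probe sets, and the methods' paired t-test also placed 0 of 10 members past the selection, with 2.18% of all probe sets past it. No adjusted p among the members was below the 0.37 of DDIT4, and no probe set on the array had one under 0.05 (0.00% of all). A change of at least 1.2-fold in the mean was reached by DDIT4 alone, 1 of 10, against 15.3% of all probe sets. The groups of 3 arrays overlapped for every member, whereas 16.6% of all probe sets had groups that did not overlap. The mean was lower with doxycycline for 6 members and higher for 4, where 49.5% of all probe sets were lower and 50.5% higher. The median log2 fold change of the members was -0.049, beside 0.0017 over all probe sets, and their median size without sign was 0.07, beside 0.10.

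**Figure D1:**
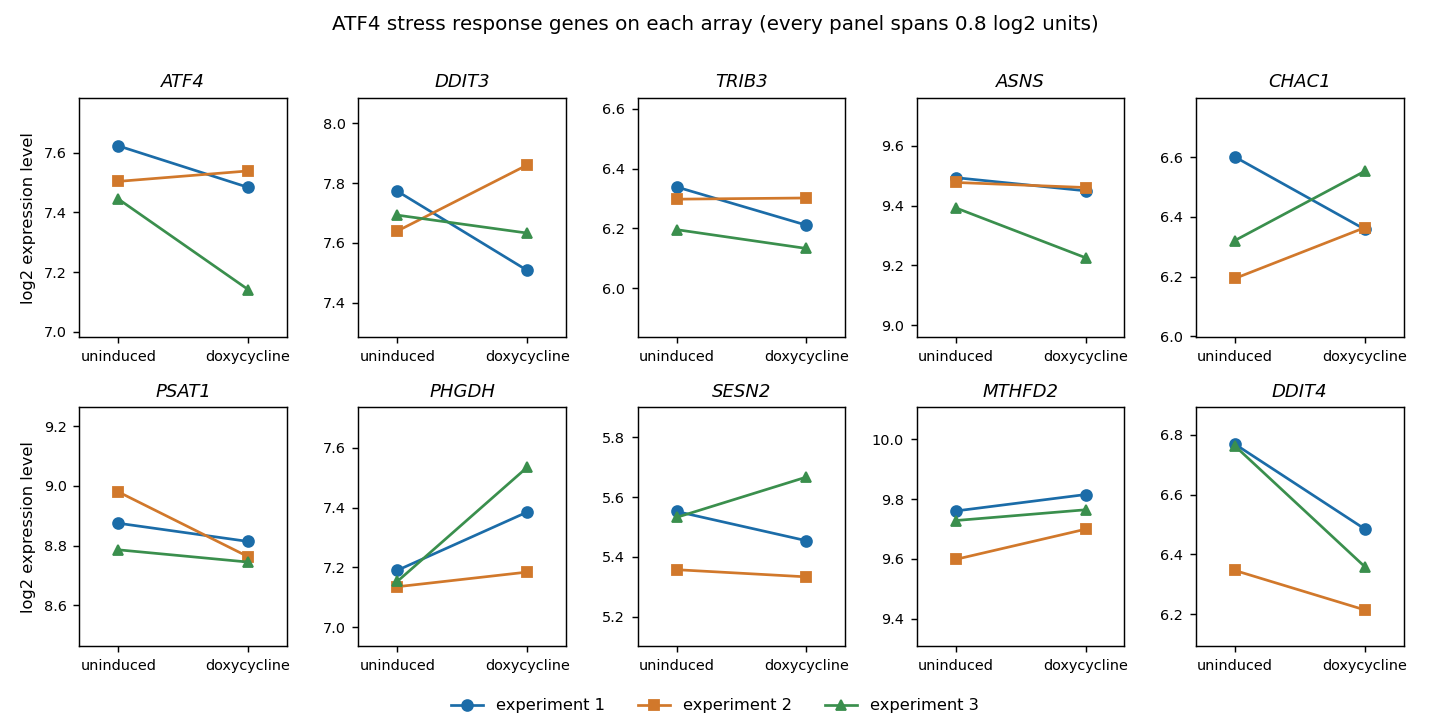
Log2 expression level (vertical axis) of the 10 genes on each of the 6 arrays, uninduced on the left and doxycycline on the right of each panel, with a line joining the arrays of an experiment. The lines cross or the groups overlap in every panel. DDIT4 and PHGDH have the largest mean changes, and their lines all slope one way. The PHGDH line of experiment 2 rises by only 0.049.

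ATF4 (ENSG00000128272_at), the transcription factor at the centre of the response, had log2 levels of 7.62, 7.50 and 7.45 on the uninduced arrays of experiments 1, 2 and 3, and of 7.48, 7.54 and 7.14 on the doxycycline arrays. The doxycycline array of experiment 3 was the lowest of all and the other 5 arrays overlapped. The means were 7.52 ± 0.091 (SD, n = 3) and 7.39 ± 0.22 (SD, n = 3). The log2 fold change was -0.14 (standard error 0.091, 95% interval -0.39 to 0.12, limma adjusted p = 0.61), and its differences within the experiments were -0.14, 0.035 and -0.30. An exact sign-flip permutation test over these 3 differences gave a two-sided p of 0.5, where 0.25 is the smallest that 3 pairs allow. The interval corresponds to 0.764 to 1.09 times the uninduced level. The size of the difference rested on experiment 3, since without it the log2 fold change was -0.052, without experiment 2 it was -0.22, and in a fit without the block that omits doxycycline array 3 it was -0.0125. The RefSeq table lists 4 pseudogenes named after ATF4, and whether their transcripts reach this probe set was not tested.

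DDIT3 (ENSG00000175197_at) encodes CHOP, a transcription factor that ATF4 induces and that promotes cell death under lasting stress. Its levels were 7.77, 7.64 and 7.69 without and 7.51, 7.86 and 7.63 with doxycycline. Both the lowest and the highest value belonged to the doxycycline group, whose SD was 0.18 against 0.067 in the uninduced group. Within the experiments DDIT3 differed by -0.27, 0.22 and -0.06, so that experiments 1 and 2 moved in opposite directions by similar amounts, and the log2 fold change was -0.035 (95% interval -0.36 to 0.29, limma adjusted p = 0.93).

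TRIB3 (ENSG00000101255_at), a pseudokinase induced by ATF4 and CHOP that dampens ATF4 activity, had levels of 6.34, 6.30 and 6.20 without and 6.21, 6.30 and 6.13 with doxycycline. The 2 groups covered nearly the same range. The log2 fold change was -0.062 (95% interval -0.24 to 0.12, limma adjusted p = 0.74), with differences of -0.13, 0.004 and -0.063. For this gene a rise above 1.09 times the uninduced level lay outside the interval.

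Of the 4 members that make amino acids or one-carbon units, PHGDH had the largest difference. PHGDH (ENSG00000092621_at) catalyses the first step of serine synthesis from 3-phosphoglycerate. Its levels were 7.19, 7.14 and 7.15 on the uninduced arrays, whose SD of 0.028 was the smallest of any member in that group, and 7.39, 7.18 and 7.54 with doxycycline. The doxycycline arrays of experiments 1 and 3 stood above all uninduced arrays, while that of experiment 2 lay just under the highest uninduced array. The log2 fold change was 0.21 (standard error 0.091, 95% interval -0.043 to 0.46, limma adjusted p = 0.46), a mean level 116% of the uninduced one, and PHGDH was higher with doxycycline in 3 of 3 experiments, by 0.20, 0.049 and 0.38. With arrays left out, the log2 fold change of PHGDH lay between 0.12 without experiment 3 (unadjusted p = 0.27 by limma) and 0.30 in the unblocked fit that omits the doxycycline array labelled 2 (unadjusted p = 0.015 by limma). The last of these, in which 5.04% of all probe sets passed, was the only 1 of its 17 alternatives to pass the study's selection. Settings that cannot alter its fold change could not pass, since 116% lies below the 1.2-fold minimum.

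PSAT1 (ENSG00000135069_at), the transaminase of the next step in serine synthesis, lay the other way. Its levels were 8.88, 8.98 and 8.79 without and 8.81, 8.76 and 8.75 with doxycycline. Only the doxycycline array of experiment 1 reached above the lowest uninduced array. It was lower in 3 of 3 experiments, with differences of -0.061, -0.22 and -0.041 and with a log2 fold change of -0.11 (95% interval -0.31 to 0.092, limma adjusted p = 0.61). The change of PHGDH exceeded that of PSAT1 by 0.26, 0.27 and 0.42 in the 3 experiments, 0.32 ± 0.094 (SD, n = 3) on the log2 scale. This pair was set side by side after its values were seen, so no test was made of it. The RefSeq table lists 4 pseudogenes of PSAT1.

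ASNS (ENSG00000070669_at) makes asparagine from aspartate and glutamine, and its promoter carries the match printed above. Its levels were 9.49, 9.48 and 9.39 without and 9.45, 9.46 and 9.23 with doxycycline. As for ATF4, the doxycycline array of experiment 3 was the lowest and the others lay close together. ASNS was lower in 3 of 3 experiments, with differences of -0.044, -0.017 and -0.17, but the log2 fold change of -0.076 (95% interval -0.27 to 0.11) did not pass the test (limma adjusted p = 0.70).

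MTHFD2 (ENSG00000065911_at), a mitochondrial enzyme of the folate cycle, had levels of 9.76, 9.60 and 9.73 without and 9.82, 9.70 and 9.76 with doxycycline. It was the most even of the members, with differences of 0.055, 0.10 and 0.036 whose SD of 0.033 was the smallest of the 10. The log2 fold change was 0.064 (95% interval -0.11 to 0.23, limma adjusted p = 0.72), which left the groups overlapping. The table lists 7 pseudogenes of MTHFD2 and 5 of ASNS, and whether their transcripts reach these probe sets was not tested.

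The other members act on redox balance and growth control. CHAC1 (ENSG00000128965_at) encodes an enzyme that degrades glutathione, and its promoter carries the second printed match. Its levels were 6.60, 6.19 and 6.32 without and 6.36, 6.36 and 6.55 with doxycycline. The uninduced arrays of experiments 1 and 2 were the highest and the lowest of all 6. The differences were -0.24, 0.17 and 0.23, their SD of 0.26 was the largest of the members, and the log2 fold change was 0.053 (95% interval -0.28 to 0.39, limma adjusted p = 0.89).

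DDIT4 (ENSG00000168209_at), also known as REDD1, and SESN2 (ENSG00000130766_at) both restrain the growth kinase complex mTORC1. DDIT4 had levels of 6.77, 6.35 and 6.76 without and 6.49, 6.21 and 6.36 with doxycycline. The uninduced array of experiment 2 stood well below the other uninduced arrays, inside the range of the doxycycline group. Within each experiment the doxycycline array was nevertheless the lower, with differences of -0.28, -0.13 and -0.40. The log2 fold change of -0.27 was the largest of the members (standard error 0.082, 95% interval -0.50 to -0.047), a mean level 82.7% of the uninduced one. With an unadjusted p of 0.029 by limma with the experiment as a block (adjusted p = 0.37), DDIT4 lay just outside the study's selection. By the methods' paired t-test DDIT4 had an unadjusted p of 0.074 and lay further outside. It entered the selection in 3 alternative fits: with a variance prior that depends on the level (unadjusted p = 0.019 by limma), with the dimmest 25% of probe sets left out (unadjusted p = 0.021 by limma), and in the unblocked fit that omits the uninduced array labelled 2 (log2 fold change -0.41, unadjusted p = 0.010 by limma). Of all probe sets, 5.99%, 6.92% and 2.63% passed in these fits. The other 14 of its 17 alternatives did not enter it, and unblocked fits that omit uninduced array 1, uninduced array 3 or doxycycline array 2 gave a log2 fold change of -0.20 each, with an unadjusted p of 0.25 by limma. The unblocked fit of all 6 arrays gave it a p of 0.099 by limma, and 3.97% of all probe sets passed there.

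SESN2, the other restraint on mTORC1, had nearly equal means in the groups. Its levels were 5.55, 5.36 and 5.53 without and 5.45, 5.33 and 5.67 with doxycycline. Both groups held high and low arrays, with those of experiment 2 the lowest in each. Its log2 fold change was 0.0043 (95% interval -0.21 to 0.22, limma adjusted p = 0.99), and its differences were -0.098, -0.024 and 0.14.

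**Figure D2:**
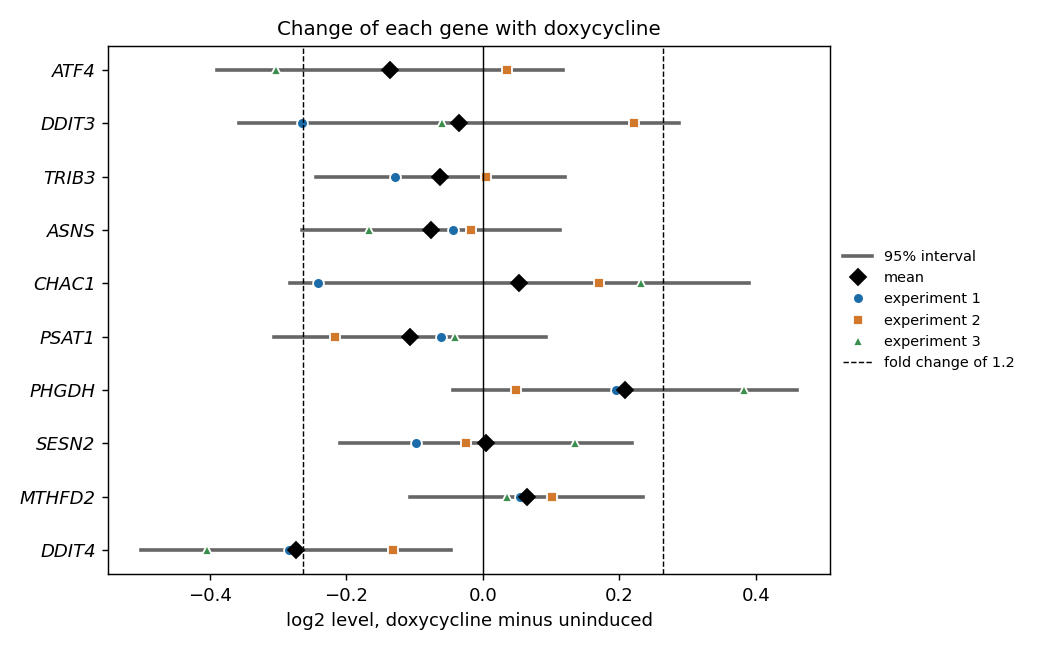
Log2 level with doxycycline minus that without (horizontal axis) for each gene, with coloured symbols for the 3 experiments, black diamonds for the mean, bars for the 95% interval from limma, and dashed lines at a fold change of 1.2. The bar of DDIT4 alone lies clear of 0, from -0.50 to -0.047. The symbols of ATF4, DDIT3, TRIB3, CHAC1 and SESN2 fall on both sides of 0.

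Across the members, 5 of 10 differed in the same direction in all 3 experiments, where 36.5% of all probe sets did. PHGDH and MTHFD2 were higher each time (2 of 10, against 18.9% of all probe sets), and ASNS, PSAT1 and DDIT4 were lower each time (3 of 10, against 17.6%). Experiment 1 had 8 members lower with doxycycline and 2 higher, with a median difference of -0.11. Experiment 2 had 4 lower and 6 higher, with a median of 0.02, and experiment 3 had 6 lower and 4 higher, with a median of -0.051. The median over all probe sets was between -0.004 and 0.007 in these experiments. Over pairs of experiments, 8 of 10 members had the same direction without experiment 2, against 56.2% of all probe sets, and 6 of 10 did without experiment 1 or without experiment 3, against 59.1% and 57.3%.

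The spread between arrays sets what could be seen. The SD of a member's 3 differences ranged from 0.033 for MTHFD2 to 0.26 for CHAC1, with a median of 0.13. By mean level, 6 members lay in the brightest 25% of probe sets, where the median of this SD was 0.10, 3 in the next 25%, where it was 0.12, and 1 in the 25% below, where it was 0.18. The SD was above the median of its own level class for 5 of 10 members. None of the members belonged to the dimmest 25% of probe sets by mean level (0 of 10), where that median was 0.24. For 10 of 10 members the 95% interval ended below 2 times the uninduced level, and the highest upper end was 1.38 times, for PHGDH. The lowest lower end was 0.707 times, for DDIT4. The share of all probe sets with intervals inside such bounds was not counted, so these bounds are not read as particular to the members. Smaller changes are within these intervals, so a p that missed the threshold does not show that the levels were equal. As these are bulk samples, lower RNA per cell and fewer expressing cells cannot be told apart.

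**Figure D3:**
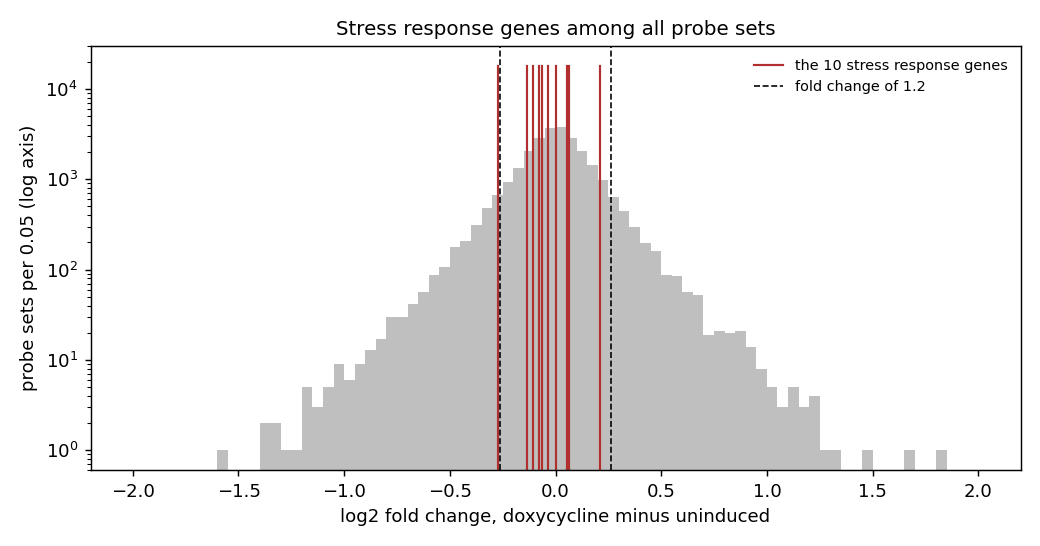
Log2 fold change with doxycycline (horizontal axis) of all 26445 probe sets, as the number of probe sets per interval of 0.05 on a log axis, with red lines for the 10 genes and dashed lines at a fold change of 1.2. The red lines lie between -0.27 and 0.21, inside the dashed lines except for DDIT4.

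For scale, the largest rise among the probe sets past the selection that moved one way in all experiments was at ENSG00000103888_at, whose log2 fold change was 1.83 (standard error 0.11, limma adjusted p = 0.35), from 7.77 ± 0.14 (SD, n = 3) to 9.60 ± 0.36 (SD, n = 3). No source used here gives this probe set a gene name. Only the 10 members are paired with probe set identifiers in these sources, so KIAA1199, markers of the cell line and further genes of the stress response could not be looked up by name. The median level was 5.66 on every array.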

How the data were processed

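Total RNA of 6 samples was hybridized to exon arrays. The authors deposited 1 log2 level per array for each of 26445 probe sets, named by Ensembl gene identifiers. The submitters' processing notes name RMA, and the 6 arrays share a median level of 5.66. The version of RMA, the probe set annotation and detection calls are not given in the sources used here, and no further normalization was applied.

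Groups and experiment numbers came from the sample titles. All probe sets were fitted with limma 3.58.1 in R 4.3.3 (lmFit and eBayes), 2-sided, with the experiment as a block because the study's test was paired. Benjamini-Hochberg adjustment ran over every probe set. The 95% intervals use limma's moderated standard errors and cover the spread between 3 experiments. The fit was also run on simulated data with changes larger than those of the members, and the outcome is not given here. The methods' t-test used these values too, with a p of 1 for probe sets without spread.

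The members were set by their gene identifiers and not by their values. Earlier results of these data were nevertheless known when the members and the further lists were chosen. Every member is named in the text. Another 105 symbols (further stress response genes, KIAA1199 and cell type markers) matched 0 probe sets, since the RefSeq gene table gives no Ensembl identifiers.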

Additional observations from a re-analysis of the deposited data

How the results depend on the processing

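The count of members past the study's selection was 0 in 16 of its 20 alternatives and 1 in the other 4. It was 1 with the dimmest 25% of probe sets left out or a level-dependent variance prior, both DDIT4, whose fold change these cannot alter. Fits that left out an experiment or an array gave counts from 0 to 1. The 1 was DDIT4 (-0.41) without uninduced array 2 and PHGDH (0.30) without doxycycline array 2, both unblocked. The cause was not tested. A fold change minimum of 1.5, no minimum, and an adjusted p under 0.05 each gave 0, as they had to given the main fit. The median log2 fold change of the members lay between -0.10 and 0.013, and was above 0 without experiment 1 only.

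With an experiment left out, the log2 fold changes of DDIT3 ranged from -0.16 to 0.081, of CHAC1 from -0.036 to 0.20 and of SESN2 from -0.061 to 0.0555. In unblocked fits that omit 1 array, the sign turned for DDIT3 (0.00083 without uninduced array 1 and 0.045 without doxycycline array 1), CHAC1 (-0.036 without uninduced array 2 and -0.0105 without doxycycline array 3), SESN2 (-0.057 and -0.087 without the same arrays) and ASNS (0.0005 without doxycycline array 3). The other 6 members kept theirs in all 17 alternatives, but only fits that omit arrays or remove the level trend test this. With arrays left out, ATF4 ranged from -0.22 to -0.0125, PSAT1 from -0.15 without uninduced array 3 to -0.051 without experiment 2, TRIB3 from -0.11 without doxycycline array 2 to -0.021 without doxycycline array 3, and MTHFD2 from 0.015 without uninduced array 2 to 0.096 without uninduced array 1. Repeating the quantile normalization or centring the arrays left every member's log2 fold change the same to 2 decimals.

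No replicate block gave 0 members past the selection, as with it, and 3.97% of all probe sets in place of 5.83%. The deviations of same-numbered arrays from their group means correlated with an r of 0.039, 0.049 and 0.13, and the uninduced array of experiment 1 correlated better with the doxycycline array of experiment 2 (0.044). The settings planned for KIAA1199 and for other stress response genes were not run, since their probe sets could not be named.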
